A study of Mus musculus with 6 samples.

Results

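The genes of the mitochondrial respiratory chain and ATP synthase that are encoded in the nucleus were examined in the nucleus accumbens (NAc), the part of the ventral striatum that serves reward, for the way their transcripts were spliced and ended. Members were all protein-coding genes of the GENCODE M21 annotation whose symbol begins with Nduf, Uqcr, Sdh followed by a to d, Cox followed by 4 to 8, or Atp5. The rule gave 98 gene identifiers, of which 94 were listed with at least 1 event in at least 1 library, out of 16154 genes listed in all. All 98 were assigned to a complex by symbol prefix alone, so a product may work in another complex than the one it is counted in. Complex I held 46 (38 subunits or related genes and 8 assembly factors), complex II 8 (4 and 4), complex III 8, complex IV 18 and complex V 18. Symbol prefixes also took in genes that are related to a subunit without being one, such as Cox7a2l, so "subunit" is used here for every member that is not an Ndufaf or Sdhaf assembly factor.

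RNA was extracted from the NAc of adult male C57BL/6N mice that had gone through conditioned place preference (CPP), a procedure in which an injection is paired with a compartment. In the saline group (3 libraries) the mice had received saline injections in training, and in the morphine group (3 libraries) they had received morphine. All mice carried the same strain background and no transgene is named, all were tested for place preference, and tissue was taken soon after that test. The series text counts more mice than samples in each group, whereas the study's figure text presents 1 mouse per library, so p-values here measure the spread between these libraries only. For each library the study deposited a list of splicing events and of starts and ends found among its assembled transcripts, and the question was whether the lists of these genes differed after morphine training.

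The chain passes electrons from NADH (complex I) and succinate (complex II) through complex III to oxygen at complex IV, and the proton gradient so built drives complex V, the ATP synthase. Neurons rely on it for the energy that ion pumping and transmitter release consume. Most subunits are encoded in the nucleus, while a core set is encoded in the mitochondrial genome, and several subunits exist in forms that differ between tissues, made either from paired genes or by alternative splicing of 1 gene.

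An event is 1 feature of a gene in a library's list. Transcript starts and ends are listed for every gene that has an entry, so that a gene with a single start and a single end has 2 events. They are told apart here by the splice-side boundary of the first or last exon. Exon skipping means that a cassette exon, or a block of exons, was included in 1 assembled transcript and left out of another. Intron retention means that an intron was kept in 1 transcript and spliced in another, and alternative exon ends are exons that share 1 boundary and differ at the other, each form being an event of its own. A listing shows that an assembler built the transcript, not how much of it was present, and an event that is not listed may still occur in the tissue. Levels of these genes were not analysed here.

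Across the series, 54660 to 62209 events and 14243 to 14956 genes were listed per library. Relative sequencing depth, with saline 1 set to 1, was 1.07 and 1.37 in saline 2 and 3, and 1.20, 1.59 and 1.29 in morphine 1 to 3. All 9 markers of striatal projection neurons were listed in every library, as were the 4 of oligodendrocytes, the 4 of astrocytes and the 3 of microglia. The 3 markers of cortical projection neurons and the 3 of the ventricle lining were also listed in all 6 libraries, as were 2 of the 3 endothelial markers, whereas the third, Cldn5, was listed in none.

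The sequences that carry the clearest splicing choices of these genes are the cassette exons that code for protein. Each is shown 5′ to 3′ with the exon in capitals between 20 bases of the neighbouring exons in lower case, as spliced in the GENCODE M21 transcript named with it, on GRCm38. In complex I, exon 3 of 5 of Ndufa5-201 lies at chr6:24522659-24522775 (minus strand, 117 bases), exon 2 of 4 of Ndufb6-201 at chr4:40277653-40277745 (minus strand, 93 bases), and exon 4 of 9 of Ndufaf6-201 at chr4:11066651-11066707 (minus strand, 57 bases). In complex V, exon 3 of 4 of Atp5d-201 lies at chr10:80145219-80145307 (plus strand, 89 bases). All 4 were listed as skipped in each of the 6 libraries.
Ndufa5: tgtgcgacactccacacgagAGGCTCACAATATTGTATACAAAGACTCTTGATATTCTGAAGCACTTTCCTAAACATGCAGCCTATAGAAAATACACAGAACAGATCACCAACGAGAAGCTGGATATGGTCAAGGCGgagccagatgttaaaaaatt
Ndufb6: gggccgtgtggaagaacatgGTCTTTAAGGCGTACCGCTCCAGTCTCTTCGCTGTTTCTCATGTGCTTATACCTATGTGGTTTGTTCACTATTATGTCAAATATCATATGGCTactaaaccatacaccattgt
Ndufaf6: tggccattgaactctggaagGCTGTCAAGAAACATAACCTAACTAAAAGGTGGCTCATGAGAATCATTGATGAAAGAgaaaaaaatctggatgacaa
Atp5d: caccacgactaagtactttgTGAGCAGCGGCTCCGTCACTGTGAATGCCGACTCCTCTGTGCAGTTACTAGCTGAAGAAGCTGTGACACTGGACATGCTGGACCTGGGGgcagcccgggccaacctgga
The first 3 exons have lengths divisible by 3, so that skipping keeps the reading frame, and the Atp5d exon does not. For Ndufaf6, no annotated coding transcript leaves the exon out.

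A further pair of coding cassette exons was listed in 5 of the 6 libraries, and is shown because the missing library differs between them (both were chosen for display after their values had been seen). Exon 3 of 6 of Sdhc-202 lies at chr1:171143558-171143659 (minus strand, 102 bases) and exon 3 of 4 of Cox7a2l-202 at chr17:83503931-83503999 (minus strand, 69 bases). The exon of Uqcr10-203 at chr11:4703904-4703989 (minus strand, 86 bases, exon 2 of 3 of a non-coding transcript) is shown as the only member event present in every list of 1 group and absent from each list of the other.
Sdhc: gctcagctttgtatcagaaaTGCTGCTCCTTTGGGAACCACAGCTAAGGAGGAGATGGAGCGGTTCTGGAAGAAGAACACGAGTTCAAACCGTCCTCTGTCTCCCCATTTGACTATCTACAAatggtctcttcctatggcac
Cox7a2l: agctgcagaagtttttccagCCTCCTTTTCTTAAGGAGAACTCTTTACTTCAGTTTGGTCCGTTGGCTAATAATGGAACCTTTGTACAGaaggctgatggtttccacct
Uqcr10: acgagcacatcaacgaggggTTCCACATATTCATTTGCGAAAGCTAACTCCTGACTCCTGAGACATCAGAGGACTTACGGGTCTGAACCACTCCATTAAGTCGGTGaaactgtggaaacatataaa

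In all, 353 different events were listed for the 94 genes. Of these, 267 were transcript starts or ends, 36 were exon skipping, 35 were alternative exon ends and 15 were intron retention. Positions matched the annotation closely: 238 of the 267 starts and ends (89.1%) used the splice boundary of an annotated first or last exon, as did 183 of the 184 that were listed in all 6 libraries. Of 27 different single exons that were skipped, in 19 genes, 24 were annotated exons, and all 9 of those listed in every library were annotated both as included and as skipped. By contrast, 10 of the 35 alternative exon ends had no annotated exon, and none of these 10 was listed in all 6 libraries. In all, 34 events reached beyond the annotated gene, and 6 lay on the other strand than their gene, each of these 6 in 1 or 2 libraries.

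The lists of these genes were mostly short and mostly shared. Of the 94 genes, 92 were listed in all 6 libraries. Ndufs8, an iron-sulphur subunit of complex I, was missing from saline 3, and Cox8b, a subunit form known from muscle, was missing from morphine 1. Sdhaf1, Cox7b2, Cox8c and 1 of the 2 identifiers of Atp5o (ENSMUSG00000116933) were in no list. In each library 58.5% to 62.8% of the listed members had 1 start, 1 end and nothing else, a mean of 60.9% ± 1.54 (SD, n = 6 libraries), against 45.7% ± 1.16 for other protein-coding genes and 52.9% ± 1.39 for the cytosolic ribosomal protein genes. Among the 353 member events, 200 (56.7%) were listed in all 6 libraries and 71 (20.1%) in a single one. For other protein-coding genes these shares were 20.5% and 50.6%, and for ribosomal protein genes 63.4% and 15.4%. These shares were not tested.

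Events per gene differed between the complexes, as the plot by complex shows. Complex V had the most among the subunits, with 3.12, 3.47 and 3.53 events per listed gene in saline 1 to 3 and 3.35, 3.53 and 3.18 in morphine 1 to 3. The subunits of complex III lay between 2.25 and 2.50, those of complex II between 2.25 and 2.75 and those of complex I between 2.37 and 2.68, and their order changed from library to library. The 8 complex I assembly factors ranged more widely, from 2.75 in morphine 2 to 4.50 in saline 3. In every complex the ranges of the 2 groups overlapped or touched. In complex IV they only touched, with 39, 41 and 42 events in saline 1 to 3 and 45, 42 and 45 in morphine 1 to 3. Per listed gene, saline 3 and morphine 2 both had 2.62 there, and no morphine library lay below a saline library. This difference was not tested.

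**Figure D1:**
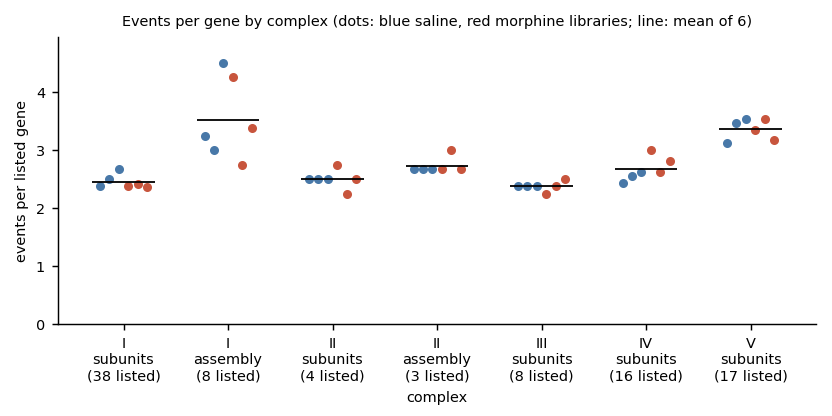
Events per listed gene (vertical axis) for the subunits and assembly factors of each complex (horizontal axis), with 1 dot per library (blue saline, red morphine) and a line at the mean of the 6 libraries. Complex V lies above the other sets of subunits with 3.12 to 3.53, complex III between 2.25 and 2.50, and the complex I assembly factors spread from 2.75 to 4.50.

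In complex I, the cassette exons of Ndufa5, Ndufb6 and Ndufv3 were listed as skipped in all 3 saline and all 3 morphine libraries. Ndufa5 and Ndufb6 encode small accessory subunits around the catalytic core. Without its 117-base exon the Ndufa5 reading frame shortened from 116 to 77 codons, and without its 93-base exon that of Ndufb6 shortened from 128 to 97. Ndufv3 encodes a subunit of the NADH-oxidising module that is known in a long and a short form. Its exon 3 of 4 is 1092 bases long, lies at chr17:31527310-31528401 (plus strand) and divides by 3, and the frame had 468 codons with it and 104 without it. Both forms of each of these genes were thus in every list.

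Ndufs1, the largest subunit of complex I, carried exon skipping that varied from library to library. Counting events of all kinds, it had 5, 6 and 8 in saline 1 to 3 and 7, 3 and 5 in morphine 1 to 3. Those of saline 2 include starts at chr1:63114960 and chr1:63122297, which lay on the strand opposite to the gene and outside it. A 104-base exon, untranslated in Ndufs1-212, was listed as a single skipped exon in saline 1, saline 3 and morphine 1. A block of exons spanning 1419 bases was listed as skipped in saline 2 and 3 and in no morphine library. Ndufv2, a subunit with an iron-sulphur cluster, had a 69-base exon, untranslated in Ndufv2-204, that was listed as skipped in saline 1 and 3 and in morphine 1 and 3.

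The assembly factors of complex I held much of the variable part. Ndufaf6 had the most events of complex I, 40 summed over libraries, with 7, 5 and 13 in saline 1 to 3 and 8, 4 and 3 in morphine 1 to 3. Its in-frame 57-base exon was skipped in every list, and its other exon skipping events, 138- and 141-base exons among them, were each listed in 1 library. Ndufaf7, a methyltransferase that acts early in complex I assembly, had 2, 2 and 4 events in saline and 6, 3 and 7 in morphine. Ndufaf3 had 3, 4 and 6 events in saline and 4, 2 and 3 in morphine, with a 67-base coding exon (exon 3 of 5 of Ndufaf3-201) that was listed as skipped in saline 2, saline 3, morphine 1 and morphine 3. Taking that exon out of Ndufaf3-201 shifts the frame, from 185 codons to 112. The longest annotated coding region had 555 bases with the exon and 225 without it.

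In complex II, the subunits Sdha, Sdhb and Sdhd had few events. Sdha, the flavoprotein, and Sdhb, the iron-sulphur subunit, each had 2 events in every library. For Sdhb the 2 events of saline 1 and the start of saline 3 lay on the strand opposite to the gene and outside it, so its own start was listed in 4 libraries (saline 2 and morphine 1 to 3) and its own end in 5. Sdhc, which anchors the complex in the membrane, had 4, 4 and 4 events in saline and 5, 3 and 4 in morphine. Its 102-base exon was listed as skipped in all libraries but morphine 2, and the frame had 169 codons with the exon and 135 without it. Sdhaf2, which helps to attach the flavin to Sdha, had 4 events in each of the 6 libraries, because its second exon was listed with both ends, 218 and 67 bases long, everywhere. The long exon (chr19:10517169-10517386, minus strand) was exon 2 of 4 of Sdhaf2-201, the forms differed by 151 bases at the donor side, and that difference does not divide by 3.

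In complex III, Uqcrh, the acidic hinge protein beside cytochrome c1, had 4 events in every library. Its exon 3 of 4 was listed with both ends in all of them, 162 bases in Uqcrh-202 (chr4:116069863-116070024, minus strand) and 57 bases in Uqcrh-201. The 105 bases between the 2 acceptors keep the frame, and the annotated frames had 89 and 54 codons. In the sequence below the extra 105 bases of the long form are in capitals, with the shared 57 bases and 20 bases of either neighbouring exon in lower case.
Uqcrh: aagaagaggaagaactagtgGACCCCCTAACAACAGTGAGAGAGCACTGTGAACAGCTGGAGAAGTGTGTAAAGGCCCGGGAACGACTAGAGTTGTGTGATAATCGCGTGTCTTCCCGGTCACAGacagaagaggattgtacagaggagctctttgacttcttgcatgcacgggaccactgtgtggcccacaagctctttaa
Uqcrc1, a core protein of the complex, showed alternative ends in a single library, morphine 3, with 141 and 90 bases.

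Uqcr10, a small subunit of complex III, had 3 events in each saline library and 2 in each morphine library. The difference was 1 event, the 86-base exon shown above, which was listed as skipped in all 3 saline libraries and in no morphine library. A listing needs both the included and the skipped form, so the lists do not show which form was assembled in morphine. The included form of this exon belongs to the non-coding transcript Uqcr10-203, and the coding transcript leaves the exon out. It was the only group-specific event, that is, one found in all 3 lists of 1 group and missing from the 3 lists of the other, among the 353 member events (0.283%), against a background of 0.658% over the 132823 events of all genes. Among exon skipping alone it was 1 of 36 (2.78%), against 1.13% over all 12874 exon skipping events. Uqcr10 was also the only gene of the 94 (1.06%) whose event numbers did not overlap between the groups, against 2.77% of the 16154 listed genes. Both counts rest on the same exon. The shares over all events and over genes lay below the background, and the share among exon skipping rests on that 1 event. With a single library left out the rule is easier to meet, and the count of group-specific member events lay between 2 and 8. The share over all events was not computed with a library left out.

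In complex IV, Cox5b had the most events, with 4 in each saline library and 6, 4 and 6 in morphine 1 to 3. Cox5b is a zinc-binding subunit on the matrix side. Its exon 3 of 4 was listed with both ends in every library, 120 bases in Cox5b-201 (chr1:36692431-36692550, plus strand) and 100 bases in Cox5b-204. The 20 extra bases are shown in capitals, followed by the first 20 bases that both forms share. The annotated frames had 85 codons with the extra bases and 129 without them.
Cox5b: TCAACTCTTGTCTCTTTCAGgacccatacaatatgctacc
Both forms of this exon were also listed as skipped in morphine 1 and morphine 3, and in neither morphine 2 nor any saline library, which accounts for the 2 additional events there.

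Cox7a2l takes part in joining complexes III and IV into supercomplexes. It had 3, 3 and 2 events in saline and 3, 3 and 3 in morphine, its 69-base in-frame exon being listed as skipped in all libraries but saline 3. Cox6b2, a subunit form best known from testis, had 2, 3 and 5 events in saline and 5 in each morphine library. Its exon 3 of 4 was listed with 101 and 54 bases in saline 3 and in all 3 morphine libraries, and the groups overlapped. Cox7a1, a form known from heart and muscle, had 3, 2 and 3 events in saline and 6, 2 and 4 in morphine.

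In complex V, Atp5c1 had the most events summed over libraries, 41 against 40 for Ndufaf6, with 7, 7 and 7 in saline and 8, 6 and 6 in morphine. It encodes the gamma subunit, the rotating shaft of the enzyme, whose penultimate exon is known to be handled differently in muscle and in other tissues. That 37-base exon (chr2:10056770-10056806, minus strand, exon 9 of 10 of Atp5c1-203) was listed both as included and as skipped in all 6 libraries. It carries 4 coding bases, and the frame had 298 codons with it and 297 without it. The last coding bases of the 2 forms are shown with the bases after the shared exon, up to and including the stop codon, in capitals.
Atp5c1 with the exon: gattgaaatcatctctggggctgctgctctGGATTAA
Atp5c1 without the exon: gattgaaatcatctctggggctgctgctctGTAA

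Of the other complex V genes with cassette exons, Atp5d, Atp5j, Atp5j2 and Atp5s each had 1 that was listed as skipped in all 6 libraries, and further exons of Atp5h, Atp5j2 and Atp5s were listed in some libraries only. Atp5d, which encodes the delta subunit of the central stalk, had 3, 3 and 6 events in saline and 3 in each morphine library, and skipping of its 89-base exon shortened the frame from 168 to 121 codons. Atp5j, which encodes coupling factor 6, had a 55-base exon outside the coding region of Atp5j-202 that was listed as skipped in every library. Atp5s had a 111-base exon with 107 coding bases (exon 2 of 5 of Atp5s-201) that was listed as skipped everywhere, both as an exact and as an approximate event, and a 100-base exon, alone and in a block with the 111-base one, in saline 2 and morphine 2 only. Atp5j2, a membrane subunit, had 4, 7 and 4 events in saline and 7 in each morphine library. Its 130-base exon was listed as skipped in all 6 libraries, and a 66-base form of the same exon in saline 2 and in all morphine libraries. Atp5h, in the peripheral stalk, had a 102-base exon outside the coding region of Atp5h-203 that was listed as skipped in saline 2 and 3 and in morphine 2 and 3.

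Of the 12 single cassette exons of members that lay wholly in coding sequence, 6 had a length divisible by 3. Among the 9 single exons listed as skipped in all 6 libraries, 6 were wholly coding, and 4 of these kept the frame (those of Ndufa5, Ndufaf6, Ndufb6 and Ndufv3). The map of events by library shows how the lists divide into a block that all libraries shared and a scatter of single listings.

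**Figure D2:**
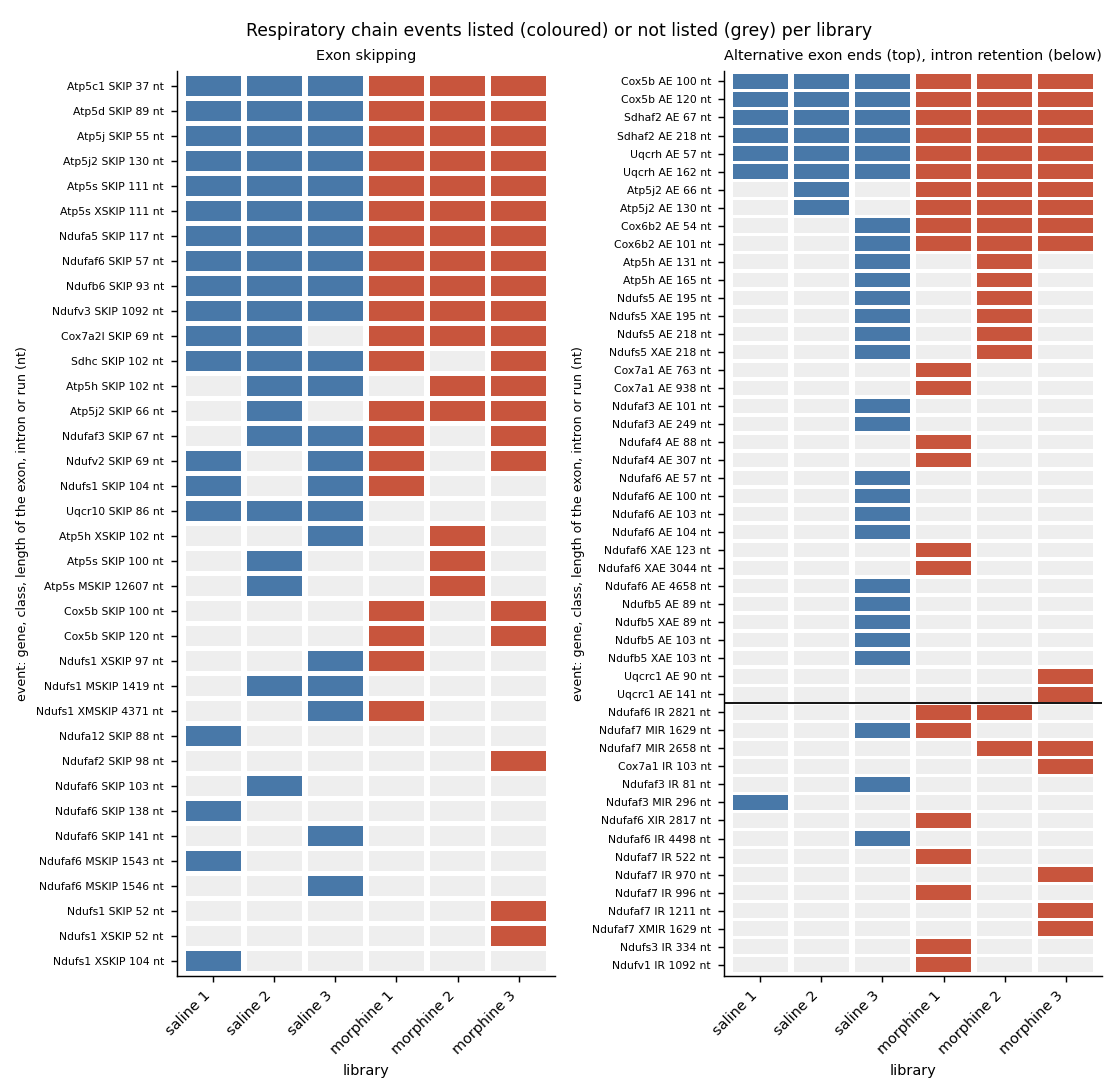
Exon skipping events (left), alternative exon ends and retained introns (right, above and below the black line) of the respiratory chain genes, 1 event per row with its gene, class and length in bases, and 1 library per column. Coloured cells are listed events (blue saline, red morphine) and grey cells are not listed. Class names are SKIP for 1 exon, MSKIP for a block, AE for alternative ends, IR for 1 retained intron and MIR for a run of them, with X for the approximate form of a class. The top 10 rows on the left are listed in all 6 libraries, the Uqcr10 row is filled in the 3 saline columns only, and no retained intron is filled in more than 2 columns.

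Several genes had more than 1 stable transcript start. Since starts were told apart by the splice-side boundary of the first exon, 2 of them need not begin at different positions. In 14 genes at least 2 starts were listed in each of the 6 libraries, and in 2 genes (Atp5j2 and Ndufv3) 2 ends were. Atp5c1 had 3 such starts. Among those with 2 were Atp5g1 and Atp5g3, which encode the same mature ring subunit of the ATP synthase, Cox6c and Cox7c in complex IV, Sdhc in complex II, and Ndufs1 and Ndufs5 in complex I. In 64 genes exactly 1 start and 1 end were listed in all 6 libraries.

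Retained introns were few and irregular. The number of member events was 1, 0 and 3 in saline 1 to 3 and 7, 2 and 5 in morphine 1 to 3. Morphine 2 lay within the range of the saline libraries, so the groups overlapped. None of the 15 events was listed in all 6 libraries, and 12 were listed in a single one, 5 of them in morphine 1 and 4 in morphine 3. Irregular listing was not particular to members. Among other protein-coding genes, 1.69% of intron retention events were listed in all 6 libraries and 67.5% in a single one. For members these shares were 0% and 80.0%, which was not tested. Of the 15, 12 fell in 3 of the 12 assembly factors (Ndufaf3, Ndufaf6 and Ndufaf7), and the remaining 3 in Cox7a1, Ndufs3 and Ndufv1 among the 86 subunits. Ndufaf7 alone had 7, introns or runs of introns of 522 to 2658 bases, with 0, 0 and 1 listed in saline and 3, 1 and 4 in morphine. Between the groups the mean number was 1.33 ± 1.53 (SD, n = 3) in saline and 4.67 ± 2.52 in morphine, a difference of 3.33 with an exact two-sided permutation p = 0.200 (Benjamini-Hochberg adjusted p = 0.500 over 5 comparisons). Without Ndufaf7, an alternative added after seeing the data, the difference was 1.

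Summed over all members, the groups did not separate in any kind of event when all 6 libraries were used. In all there were 246, 256 and 274 events in saline and 264, 253 and 254 in morphine, a difference of -1.67 (exact permutation p = 0.800), which turned to 6 without saline 3, to 0.333 without morphine 2 and to 1.67 with the entries not merged. Exon skipping was listed 19, 20 and 22 times in saline and 20, 16 and 21 times in morphine, a difference of -1.33 (exact permutation p = 0.700) that turned to 0.167 without morphine 2. Alternative exon ends were listed 6, 8 and 25 times in saline and 16, 16 and 12 times in morphine. Saline 3 stood above every other library there, and 11 of the 19 alternative ends that were listed in a single library were its own, from Ndufaf3, Ndufaf6 and Ndufb5. The difference was 1.67 (exact permutation p = 0.900), and without saline 1 or without saline 2 it turned to -1.83 or -0.833. Without saline 3 it was 7.67 (exact permutation p = 0.200), and the groups then did not overlap. With 3 against 2 libraries no exact test can give a p under 0.200. Transcript starts and ends were listed 220, 228 and 224 times in saline and 221, 219 and 216 times in morphine, a difference of -5.33 (exact permutation p = 0.200). The adjusted p of these 4 comparisons lay between 0.500 and 0.900, and with 3 against 3 libraries no exact test can give a p under 0.1.

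**Figure D3:**
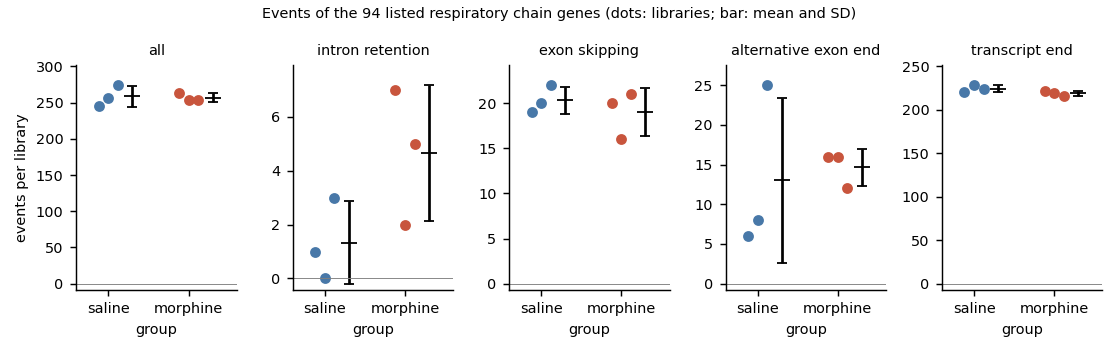
Number of events of the listed respiratory chain genes per library (vertical axis), for all events and for each kind, with 1 dot per library (blue saline, red morphine) and the mean with its SD as a bar beside the dots. Saline and morphine overlap in every panel, and alternative exon ends reach 25 in saline 3 against 6 and 8 in the other saline libraries.

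Within each library, the members differed from other protein-coding genes in the kinds of events they carried, and this held in all 6 libraries. Members had 2.75 ± 0.119 events per listed gene (SD, n = 6 libraries) and other protein-coding genes 4.01 ± 0.185, a difference of -1.26 (exact sign-flip permutation p = 0.031 over 6 libraries, adjusted p = 0.0375 over 6 comparisons). The ribosomal protein genes, which are also short and active in all cells, had 2.73 ± 0.0299, and the difference from them was 0.0230 (exact sign-flip permutation p = 0.688), with members higher in 3 libraries and lower in 3. This p does not show the 2 sets to be alike. The 6 libraries come from both groups, and the smallest p that 6 sign flips can give is 0.031.

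Intron retention made up 1.15% ± 0.993 of member events, from 0% in saline 2 to 2.65% in morphine 1, against 12% ± 2.23 for other protein-coding genes, and alternative exon ends made up 5.30% ± 2.43 against 10.3% ± 0.337. Exon skipping made up 7.62% ± 0.681 against 10.3% ± 0.516. Transcript starts and ends made up the larger share, 85.9% ± 3.02 against 67.5% ± 2.04. The share of starts and ends was higher, and the other shares lower, in 6 of 6 libraries (exact sign-flip permutation p = 0.031 each, adjusted p = 0.0375). These 4 shares are parts of 1 whole, so their tests are not independent of each other. They also go with the test of events per gene. Starts and ends are listed for every gene with an entry, so fewer events per gene leave them a larger share. With the entries of the files not merged, the share of alternative exon ends no longer passed, at a difference of -3.30 percentage points (adjusted p = 0.0625, exact sign-flip permutation test). The ribosomal protein genes lay further out for all 4, with 0.232% intron retention, 2.35% alternative exon ends, 1.64% exon skipping and 95.8% starts and ends, which was not tested.

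**Figure D4:**
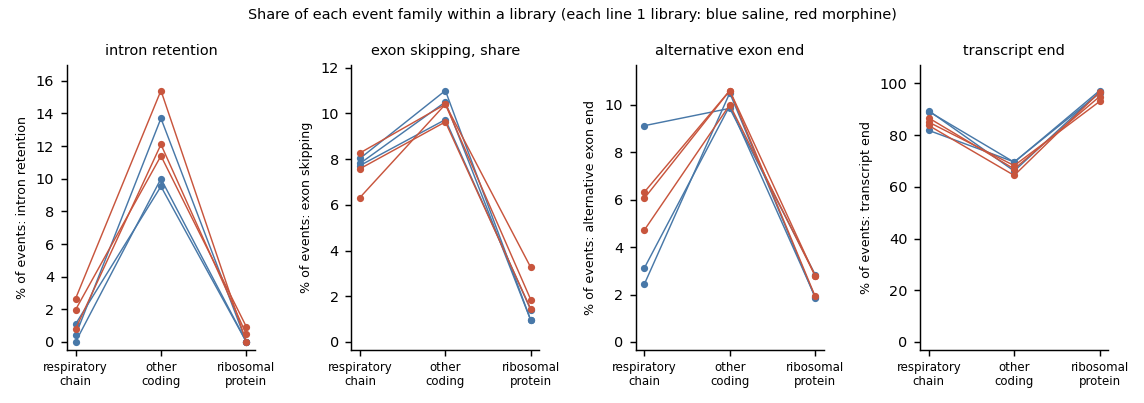
Share of each kind of event among all events (vertical axes, percent) for the respiratory chain genes, other protein-coding genes and cytosolic ribosomal protein genes, with 1 line per library (blue saline, red morphine). In all 6 libraries the respiratory chain genes lie below the other protein-coding genes for intron retention, exon skipping and alternative exon ends, and above them for transcript ends (85.9% against 67.5% on average).

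Member genes were also shorter and had fewer introns than other genes, and the part of this in the shares was not tested beyond the counts given here. The median length of a listed member was 7.57 kb, against 25.2 kb for other listed protein-coding genes, and the median number of different annotated introns was 5.50 against 11.0. Set against the annotation, in a calculation added after seeing the data, members had 4.71 ± 4.09 intron retention events per 1000 annotated introns (SD, n = 6) and other protein-coding genes 33.1 ± 7.61, so that the direction stayed. For exon skipping the direction turned. Members had 49.6 ± 5.39 exon skipping events per 1000 annotated internal exons, from 40.2 in morphine 2 to 56.1 in saline 3, and other protein-coding genes 35.8 ± 1.07. Members were higher in 6 of 6 libraries, by 13.8 on average (exact sign-flip permutation p = 0.031), whereas the share of exon skipping among events was lower in the same 6 libraries. Ribosomal protein genes, with a median of 6.00 introns, had 9.76 ± 5.21 per 1000 internal exons. The share of listed genes with any exon skipping event was lower for members in each of the 6 libraries, 15.7% ± 2.11 against 22.4% ± 0.290 for other protein-coding genes, which was not tested. Of the 36 different exon skipping events of members, Ndufs1 held 7 and Ndufaf6 6. Exact and approximate events of the same exon were counted apart. The part of transcript level and assembly in these differences was not tested.

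**Figure D5:**
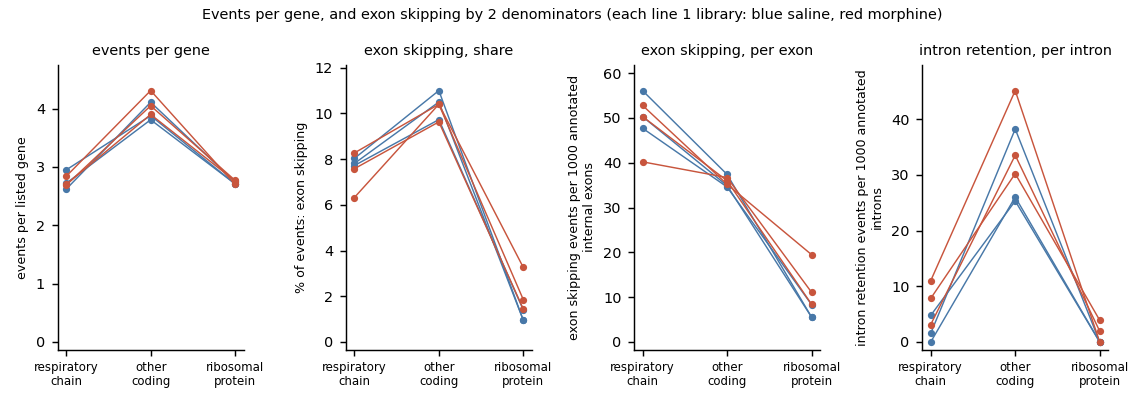
Events per listed gene, exon skipping as a share of events and per 1000 annotated internal exons, and intron retention per 1000 annotated introns (vertical axes), for respiratory chain, other protein-coding and ribosomal protein genes, with 1 line per library (blue saline, red morphine). Exon skipping of the respiratory chain genes is lower than that of other genes as a share (7.62% against 10.3%) and higher per exon (49.6 against 35.8).

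Genes that work with the chain were taken from lists of 66 genes, of which 55 were listed. Only 3 of the 13 protein-coding genes of the mitochondrial genome (mt-Nd6, mt-Cytb and mt-Co1) had entries, none of them in all 6 libraries, and of all protein-coding genes with 1 annotated exon 10.1% were listed. All 7 genes of electron carriers and entry points, such as Cycs, which encodes cytochrome c, were listed in every library. Of 38 genes of assembly and regulation 37 were listed, as were all 8 genes that serve transcription of nuclear and mitochondrial genes. Event numbers did not overlap between the groups in 3 of the 55 (5.45%, against the 2.77% of all listed genes given above).

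Ppargc1a, a coactivator of mitochondrial biogenesis, had 10, 8 and 7 events in saline and 5 in each morphine library. Retained introns (3) were listed in saline 1 only, skipped exons in saline 2 (2) and saline 3 (1), and starts and ends numbered 5, 4 and 4 in saline and 3 in each morphine library. Esrra, a nuclear receptor that acts with it, had 2 events in each saline library and 3, 3 and 4 in morphine, and a transcript start that was listed in all 3 morphine and no saline libraries was the only group-specific event among the 371 events of these lists (0.270%, against the background of 0.658%). Atpaf1, which helps to assemble the F1 part of ATP synthase, had 2 events in each saline library and 6, 3 and 4 in morphine, all of them starts and ends. The exact test of a single gene cannot give a p under 0.1 here, and none of the 3 was tested.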

How the data were processed

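Total RNA of the NAc was sequenced in 6 libraries, 3 per group, with groups taken from the treatment label. Replicate numbers follow accession order and are names only. Per the study's methods, reads were mapped with HISAT2 and transcripts were assembled with StringTie. The genome build and annotation release are not given in the sources used here. The authors deposited a list of events per library, in the layout of the ASprofile program. Its column named FPKM held only 0 and negative whole numbers and was not used as a level.

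The authors also deposited a table of 31 transcripts with raw read counts. The FPKM values in that table, deposited by the authors, take account of transcript length and of the fragments mapped in a library. Only the ratio of count to FPKM was used, for the relative depth, by weighted least squares over 91 values with at least 10 counts. The table's fold changes and adjusted p-values are the authors' own and were not used, and 0 per-sample columns were left unused. Total read numbers were not analysed here, and no interval on counts was given for the event lists.

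Included and skipped, or retained and spliced, entries were merged (20 event types, 12 classes, 4 families). Events were told apart by gene, class, strand, chromosome and the limits of their exon or intron, and starts and ends by their splice-side coordinate. GENCODE M21 (GRCm38) held 99.30% to 99.33% of each library's gene identifiers, and gave gene names, exons, coding regions and the sequences, read from its transcripts. Positions count from 1, and no protein or genome sequence was used.

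Sums over members were compared between groups by two-sided exact permutation tests, and members with other genes within libraries by two-sided exact sign-flip permutation tests, adjusted by Benjamini-Hochberg over 5 and 6 comparisons. Call rules and tests were tested on simulated data. Named were members with a splicing event in all 6 libraries, a group-specific event, the most events of their complex, event numbers that do not overlap, 2 stable starts or ends (at most 10), or no listing in some library. Other genes and exons named, such as those of Ndufv2, Ndufaf3, Ndufaf7, Uqcrc1, Cox7a2l, Cox6b2, Cox7a1 and Atp5h, were chosen after their values were seen. Members, lists and rules were chosen with earlier results of these data known. Alternatives were other event identities, other denominators, subsets of members and leaving out each library. The tests used scipy 1.17.1, the tables pandas 2.3.3 and numpy 2.4.6, and the plots matplotlib 3.10.9, in Python 3.11.15.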

Additional observations from a re-analysis of the deposited data

How the results depend on the processing

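Of 75 values recomputed under alternatives other than leaving out a library, 66 were unchanged. For a tested difference this means the same direction and the same side of the threshold, and for a count, which has neither, the same number. Counting entries without merging turned the difference in all member events between the groups to 1.67, put the difference in events per gene from ribosomal protein genes past the threshold (0.227), took the difference in the share of alternative exon ends off it (-3.30, adjusted p = 0.0625 in the exact sign-flip permutation test) and gave 2 group-specific member entries, the included and the skipped entry of an event being counted apart. Per 1000 events of all genes, 3 members did not overlap between the groups in place of 1, and the share over all listed genes was not computed for this setting. With subunits only, the difference in exon skipping was 0 and that from ribosomal protein genes -0.0504, and without events on the other strand the difference in all member events was 0. Exon skipping per 1000 annotated internal exons, added after seeing the data, turned the difference from other genes to 13.8.

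When each library was left out in turn, the differences between morphine and saline ranged from -8 to 6 for all member events, 2.17 to 4.67 for intron retention, -2.33 to 0.167 for exon skipping, -1.83 to 7.67 for alternative exon ends and -7.33 to -3.33 for transcript starts and ends. The sign for all events turned without saline 3 (6) or morphine 2 (0.333), and that for exon skipping without morphine 2 (0.167). Group-specific member events numbered 2 to 8, the most without saline 2 (8) and morphine 2 (5), and members without overlap 1 to 4, the most without morphine 1 or morphine 2, since 3 against 2 libraries meet these rules more easily. The shares over all events and all genes were not computed with a library left out, so these counts have no background beside them. Differences from other genes ranged from -1.32 to -1.21 events per gene, and for shares, in percentage points, from -11.4 to -10.4 for intron retention, -2.78 to -2.37 for exon skipping, -5.80 to -4.34 for alternative ends and 17.5 to 19.7 for starts and ends. The difference from ribosomal protein genes ranged from -0.0206 (without saline 3) to 0.0530. With 5 libraries the smallest p of this test is 0.0625, so it could not pass. No paired analysis was possible because the labels give no replicate numbers that tie saline to morphine libraries. Event lists depend on depth and assembly, and no depth per gene was analysed.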
